A study of Homo sapiens with 18 samples.

Results

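The 48 genes described here encode the machinery that takes a cell through mitosis. They include CDK1 with its cyclins and regulators, the Aurora and NEK kinases, kinesin motors, and proteins of the spindle and of cytokinesis. The list also holds partners of the anaphase-promoting complex with securin and separase, subunits of condensin, and the transcription factors FOXM1 and MYBL2. Core subunits of the anaphase-promoting complex are not among the 48. They were chosen by gene symbol from a list of such genes, and all 48 of 48 were found among 18417 genes with a measured probe set. Where a symbol had several probe sets (WEE1, BIRC5 and KIF22), the one with the highest mean was used. NCI-H1299 cells, a human lung carcinoma line without p53, were profiled on 18 Affymetrix Gene arrays 40 hours after transient transfection with a plasmid that also makes green fluorescent protein, and only fluorescent cells were kept. In the first set of 9 arrays, ΔNp53:WTp53, which joins the N-terminally shortened isoform to wild-type p53, and WTp53 alone were compared with empty vector in experiments 0, 4 and 5, described as separate transfections. In the second set of 9 arrays, tethered WTp53 and WTp53 were compared with empty vector in experiments d, e and f, called control experiments. All 6 groups had 3 arrays and carried the same green fluorescent vector, and the constructs were made from plasmids in 1 cell line. The tethered arrays name tethered p53 in their titles and descriptions but ΔNp53:WTp53 in their transfection field; the titles were followed here.

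CDK1 bound to a B-type cyclin drives the entry into mitosis. WEE1 and PKMYT1 hold it inactive by phosphorylation, and CDC25 phosphatases release it. The anaphase-promoting complex, loaded with ubiquitin by UBE2C and activated by CDC20, then marks securin and cyclin B for destruction, while condensin and topoisomerase II shape the chromosomes and kinesins build and elongate the spindle. Most of these genes are transcribed in G2 and mitosis through B-MYB (MYBL2) and FOXM1, which act with the MuvB core at a promoter element called CHR, often next to CCAAT boxes. p53 is known to lower them indirectly: it induces the CDK inhibitor p21 (CDKN1A), and MuvB with the pocket proteins then forms the repressive DREAM complex at the same element.

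Promoter windows from RefSeq (GRCh38.p14), from 250 bases before to 50 bases after an annotated start, were at hand for 39 of the 48 genes. The CHR letters TTTGAA or TTCGAA, read on both strands, were present in windows of 27 of these 39 genes (69.2%), against 19.5% of all 27305 genes in the same table. CCAAT, also read on both strands, was present in 29 (74.4%), against 39.7% of all genes. Both motifs were present in 22 (56.4%), against 7.85% of all genes. A match is a description of letters and not a measured binding site. 4 promoters are shown because the genes behave differently in the first set. There CCNB2 and KIF4A were lower with ΔNp53:WTp53 than with WTp53, whereas CDK1 and FBXO5 were lowered by WTp53 itself. In the second set this split does not hold: WTp53 also lowered KIF4A, and all 4 genes were lower with tethered WTp53 than with WTp53. The 250 bases before the start are given 5′ to 3′ on the strand of the gene, with CHR and CCAAT matches of either strand in capitals (a match on the other strand reads TTCAAA or ATTGG here), and CCAATTGG in FBXO5 is an overlap of a CCAAT match on each strand. CCNB2 lies at chr15:59104896-59105145 on the plus strand, KIF4A at chrX:70289854-70290103 on the plus strand, CDK1 at chr10:60778228-60778477 on the plus strand and FBXO5 at chr6:152983042-152983291 on the minus strand. Where a gene has several windows (CDK1 and FBXO5), the one with the most matches is shown.
CCNB2: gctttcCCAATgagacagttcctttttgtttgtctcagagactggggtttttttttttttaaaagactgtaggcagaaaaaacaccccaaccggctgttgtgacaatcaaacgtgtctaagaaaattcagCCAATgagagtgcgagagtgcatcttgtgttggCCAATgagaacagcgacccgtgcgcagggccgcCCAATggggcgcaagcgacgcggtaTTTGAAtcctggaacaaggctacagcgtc
KIF4A: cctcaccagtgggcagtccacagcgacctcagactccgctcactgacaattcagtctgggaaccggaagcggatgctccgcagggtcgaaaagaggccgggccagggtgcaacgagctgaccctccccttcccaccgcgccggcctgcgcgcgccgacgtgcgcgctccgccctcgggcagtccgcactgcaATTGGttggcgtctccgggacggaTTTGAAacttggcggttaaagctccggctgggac
CDK1: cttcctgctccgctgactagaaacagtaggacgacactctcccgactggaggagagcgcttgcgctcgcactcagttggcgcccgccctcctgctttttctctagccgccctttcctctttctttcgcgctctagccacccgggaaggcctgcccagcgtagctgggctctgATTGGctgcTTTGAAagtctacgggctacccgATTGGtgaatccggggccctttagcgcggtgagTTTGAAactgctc
FBXO5: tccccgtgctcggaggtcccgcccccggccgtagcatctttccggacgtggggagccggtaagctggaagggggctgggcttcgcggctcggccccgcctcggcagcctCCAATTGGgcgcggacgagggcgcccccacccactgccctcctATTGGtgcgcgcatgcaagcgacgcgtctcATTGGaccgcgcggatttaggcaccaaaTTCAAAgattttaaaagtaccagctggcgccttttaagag
The CHR letters start 29 bases before the annotated start in CCNB2, 34 bases before it in KIF4A, 69 and 13 bases before it in CDK1 and 40 bases before it in FBXO5. CDC20, whose RNA was not lowered in any comparison, also holds both motifs in its window.

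Values are log2 intensities normalized by the authors. Array medians ran from 4.89 to 4.97 (first set) and from 7.01 to 7.07 (second set). The sets are therefore not on 1 scale, and levels were compared only within a set. Levels of different probe sets were set side by side only for markers, and for low values against the markers of other cell types, as a rough guide. CDKN1A, the p53 target used as a check of the labels, had 8.46, 9.18 and 9.25 in ΔNp53:WTp53 and 9.76, 10.00 and 9.92 in WTp53, against 5.86, 4.90 and 5.05 in vector (experiments 0, 4 and 5). In the second set it had 11.83, 11.81 and 11.77 in tethered WTp53 and 11.72, 11.71 and 11.70 in WTp53, against 8.67, 8.44 and 8.63 in vector (experiments d, e and f). The p53 arrays were above vector in both sets. The carcinoma line markers VIM, KRT8 and KRT18 lay between 8.77 and 11.09 on the first 9 arrays, where 15 leukocyte, fibroblast, endothelial and lung epithelial markers lay between 2.61 and 6.33. Of those 15, SCGB1A1 rose with ΔNp53:WTp53 and CD79A, TYROBP and SFTPC with WTp53 against vector in the first set. In the second set SFTPC, SCGB1A1 and CDH1 rose and CD14 fell with tethered WTp53, and CD79A and CDH1 rose and CD14 fell with WTp53, against vector. Their part in the results was not tested.

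1 array stands apart. ΔNp53:WTp53 of experiment 0 lay above its group mean by a median of 0.78 over the 48 genes, and it was the highest of its group in 45 of them; over all genes its median deviation was -0.02. CDKN1A was also lowest on that array within the ΔNp53:WTp53 group. Over the 48 genes the median SD between arrays was 0.70 in ΔNp53:WTp53, 0.13 in WTp53 and 0.09 in vector. In the second set it was 0.07 in tethered WTp53, 0.03 in WTp53 and 0.05 in vector, and 5 of the 48 genes (FBXO5, KIF18A, KIF22, MELK and NCAPG) had the same value to 2 decimals on all 3 WTp53 arrays, as did 2.97% of all genes. Each set therefore supplied its own spread in limma, with Benjamini-Hochberg adjustment over all 18417 genes and a threshold of 0.05. These p-values measure the spread between arrays, and for experiments d, e and f nothing states that they were separate cultures.

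**Figure D1:**
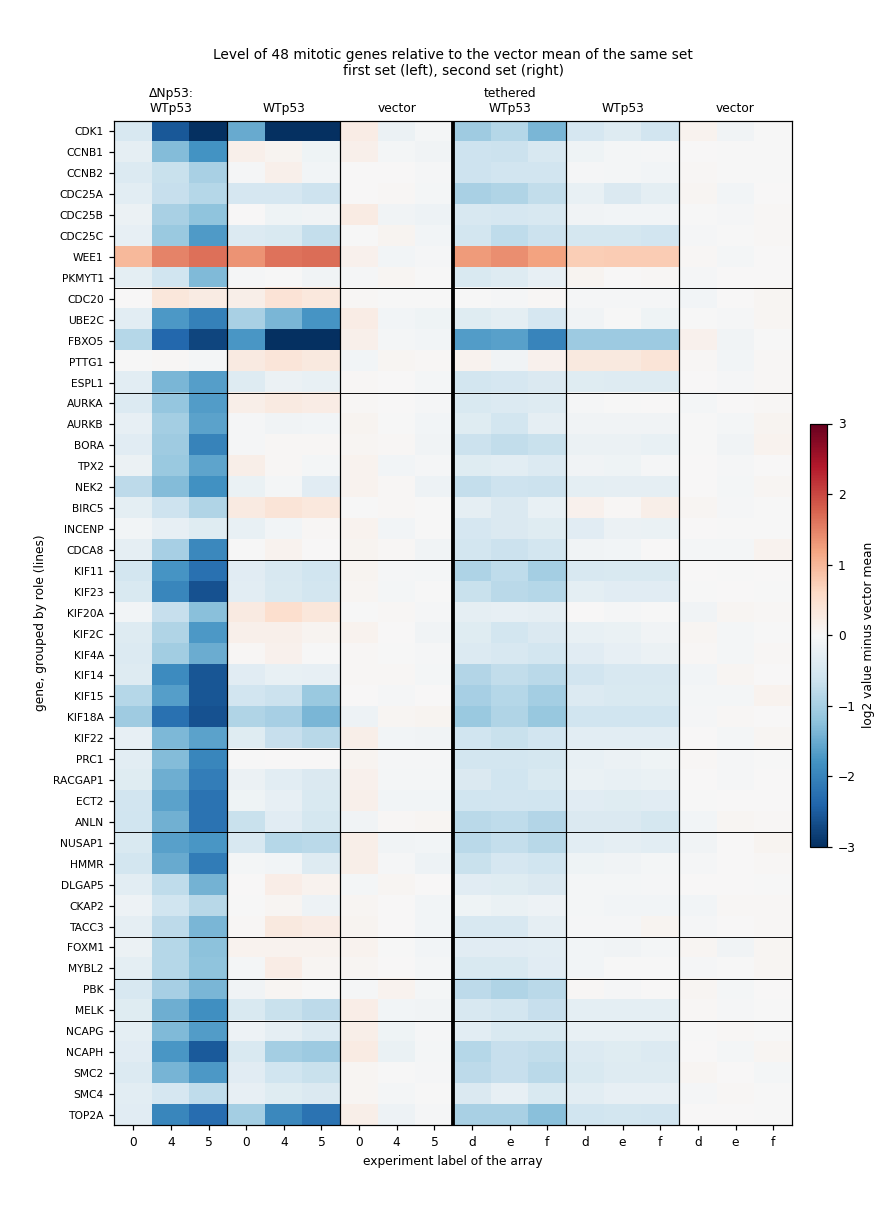
Level of each of the 48 genes on every array as log2 value minus the vector mean of the same set (colour, red above and blue below vector; values beyond the ends of the scale take the end colour), with genes down the page by role and the 18 arrays across by group and experiment label. The ΔNp53:WTp53 arrays of experiments 4 and 5 are blue for nearly all genes, that of experiment 0 is paler, and WEE1 is red in all p53 groups.

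With ΔNp53:WTp53, nearly the whole mitotic list was lower than in vector. Of the 48 genes 44 fell and 1, WEE1, rose, while 20.3% of all genes tested fell and 15.7% rose (limma, adjusted p under 0.05). The median change of the 48 was -1.08 (2.11-fold lower), against 0.01 over all genes. At least 2-fold falls were found for 27 of them, against 3.29% of all genes, and for 44 the 3 arrays lay wholly below the vector arrays, against 24.6% of all genes. All 9 kinesins, all 4 cytokinesis genes, all 5 spindle-associated genes and all 5 genes of condensin and topoisomerase fell, with group medians of -1.52, -1.36, -0.82 and -1.17. INCENP (-0.24), CDC20 (0.20) and PTTG1 (-0.01) did not pass. In bulk RNA, fewer cells in G2 and mitosis and less of each RNA per cell cannot be told apart. The changes with the smallest p were WEE1 (1.36 ± 0.17, SE), the kinesins KIF18A (-1.97 ± 0.32), KIF15 (-1.69 ± 0.34), KIF11 (-1.52 ± 0.33) and KIF4A (-0.97 ± 0.21), the centrosomal kinase NEK2 (-1.30 ± 0.22), PBK (-0.95 ± 0.18), CCNB2 (-0.69 ± 0.13), CDC25A (-0.62 ± 0.13) and SMC4 (-0.53 ± 0.11), with limma adjusted p between 0.000242 and 0.00536. The median difference from vector was -0.43 within experiment 0, -1.18 within experiment 4 and -1.63 within experiment 5. Without ΔNp53:WTp53 of experiment 4 the count of falls was 29.

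With WTp53 alone, few of the 48 passed in the first set. Of the 48 genes 7 fell and 3 rose, while 16.6% of all genes fell and 15.2% rose. The share of falls without a block (14.6%) was near that of all genes, but this fit shares the wide spread of ΔNp53:WTp53. The median SE was 0.27 over the 48 and 0.11 over all genes, so the 2 shares are not on equal terms. With the 6 arrays of the comparison alone, 16 more of the 48 passed. The share of all genes in that fit is not given here. The median change was -0.13, against 0.02 over all genes. The falls were large in a few genes: FBXO5, which inhibits the anaphase-promoting complex (-2.68 ± 0.48), CDK1 (-2.58 ± 0.61), TOP2A (-1.72 ± 0.45), UBE2C (-1.36 ± 0.38) and KIF18A (-1.09 ± 0.32), and smaller in CDC25A (-0.55 ± 0.13) and SMC4 (-0.35 ± 0.11). On the WTp53 arrays of experiments 4 and 5, CDK1 and FBXO5 lay within the range of the markers of other cell types (2.61 to 6.33), so the size of their falls may be understated. KIF15 lay within it on all first-set arrays, vector included, and NCAPH on WTp53 of experiment 5. On ΔNp53:WTp53 arrays PKMYT1 did so in all experiments. In experiment 4, 5 or both so did CDK1, FBXO5, UBE2C, TOP2A, CDC25A, CDC25B, CDC25C, ESPL1, BORA, NEK2, CDCA8, KIF11, KIF14, KIF18A, HMMR and NCAPH. The same limit may apply to them, but the upper bound of the marker range is loose. Its top values, 6.33 and 6.28, came from TYROBP and SFTPC on WTp53 arrays, and both rose with WTp53. On vector arrays these markers stayed at or below 5.82. UBE2C, TOP2A, CDC25A, CDC25B, CDCA8, KIF11 and HMMR lay above 5.82 throughout. So did FBXO5 with ΔNp53:WTp53, PKMYT1 with it in experiments 0 and 4, NCAPH on WTp53 of experiment 5 and KIF15 in vector. WEE1 rose by 1.55 ± 0.17, PTTG1 (securin) by 0.32 ± 0.08 and CDC20 by 0.30 ± 0.10; adjusted p of all 10 lay between 0.000132 and 0.0464. With the experiment label as a block 12 fell and 3 rose; the 5 added falls were KIF15 (limma adjusted p = 0.0393 with the block and 0.114 without it), KIF22 (0.0276 and 0.14), NUSAP1 (0.0148 and 0.0846), MELK (0.0389 and 0.144) and NCAPH (0.0408 and 0.175). The count of falls was 17 without ΔNp53:WTp53 of experiment 0, which enters through the shared spread, 4 without vector of experiment 4, and 3 without WTp53 of experiment 4 or of experiment 5. Without WTp53 of experiment 4 the count of rises was 1. The 2 comparisons with vector share the vector arrays.

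ΔNp53:WTp53 was set against WTp53 to ask how the combination differs from the full-length protein. Of the 48 genes 44 were lower by value. Of the 48, 9 passed the test as lower and 0 as higher, while 0.88% of all genes fell and 1.56% rose. At an unadjusted p under 0.05 there were 34 of the 48 in either direction, a count not made over all genes. The median difference was -0.87 (1.83-fold lower), against -0.01 over all genes. At least 2-fold falls were found for 4 (0.157% of all genes), and 25 genes had all ΔNp53:WTp53 arrays below all WTp53 arrays (10.8% of all genes). The 9 were BIRC5, a chromosomal passenger and apoptosis inhibitor (-0.93 ± 0.13), the kinase AURKA (-1.31 ± 0.24), CCNB2 (-0.69 ± 0.13), NEK2 (-1.10 ± 0.22), PBK (-0.93 ± 0.18), KIF4A (-1.02 ± 0.21), KIF20A (-1.04 ± 0.23), MYBL2 (-0.86 ± 0.19) and TACC3 (-1.0 ± 0.22), with limma adjusted p between 0.00984 and 0.0487. With the experiment label as a block 18 fell; the 9 added were CCNB1, CDC25B, TPX2, KIF2C, PRC1, ECT2, HMMR, DLGAP5 and FOXM1, with adjusted p between 0.0191 and 0.0407 with the block and between 0.0549 and 0.133 without it. The median was -0.21 within experiment 0, -1.01 within experiment 4 and -1.35 within experiment 5. The share of all genes with an array left out is not given here. The count of 9 falls rests on single arrays. It was 39 without ΔNp53:WTp53 of experiment 0, where the median was -1.21, and 0 without that of experiment 4, 2 without that of experiment 5, 5 without vector of experiment 0 and 1 without vector of experiment 4 or 5. It was 1 without WTp53 of experiment 0 and 0 without WTp53 of experiment 4 or 5. None of the 9 calls was kept in every such omission, and all 9 were lost when the 6 arrays of the comparison were fitted alone.

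**Figure D2:**
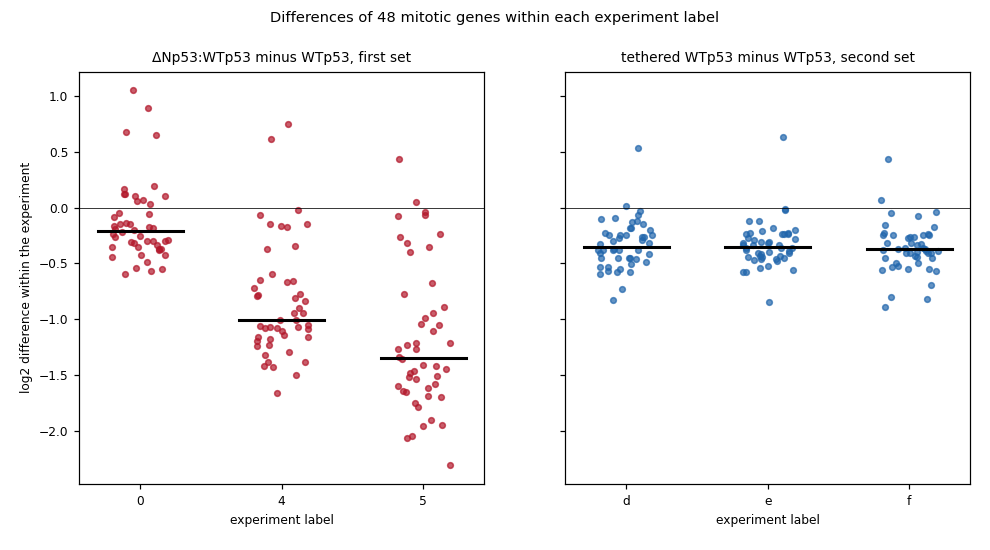
Log2 difference of each of the 48 genes (points) between ΔNp53:WTp53 and WTp53 of the same experiment label (left) and between tethered WTp53 and WTp53 of the same label (right), with bars at the medians. The medians are -0.21, -1.01 and -1.35 in experiments 0, 4 and 5, and -0.35, -0.35 and -0.38 in d, e and f.

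With tethered WTp53, too, almost the whole list was lower than in vector. Of the 48 genes 45 fell and 1, WEE1, rose, while 26.2% of all genes fell and 21.6% rose. The median change was -0.56 (1.48-fold lower), against 0 over all genes, and 4 fell at least 2-fold, against 0.874% of all genes. The smallest p were those of WEE1 (1.28 ± 0.05), FBXO5 (-1.77 ± 0.09), KIF18A (-1.05 ± 0.06), PBK (-0.83 ± 0.05), KIF15 (-0.96 ± 0.06), ECT2, which is needed for cytokinesis (-0.59 ± 0.04), ANLN, a scaffold of the contractile ring (-0.82 ± 0.05), CCNB2 (-0.59 ± 0.04), KIF11 (-0.90 ± 0.06) and KIF23 (-0.78 ± 0.05), with limma adjusted p between 1.12e-08 and 3.58e-07. PTTG1 (0.05) and CDC20 (-0.01) did not pass. The 44 genes that fell with ΔNp53:WTp53 were 44 of the 45 that fell with tethered WTp53, and the other one was INCENP (-0.43 ± 0.05). With 44 and 45 of 48 called, a large overlap follows from the counts themselves.

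WTp53 in the second set lowered 27 of the 48 and raised 2, while 18.9% of all genes fell and 17.9% rose. The median change was -0.20, against -0.02 over all genes, so most falls were small. FBXO5 (-1.10 ± 0.09) was the only one of the 48 to fall at least 2-fold, against 0.331% of all genes; the next by p were KIF18A (-0.59 ± 0.06), CDC25C (-0.55 ± 0.06), ECT2 (-0.35 ± 0.04), KIF14 (-0.52 ± 0.05), ANLN (-0.46 ± 0.05), separase ESPL1 (-0.39 ± 0.04), TOP2A (-0.57 ± 0.07) and SMC2 (-0.41 ± 0.05). WEE1 rose by 0.75 ± 0.05 and PTTG1 by 0.33 ± 0.07. The adjusted p of WEE1 and of these falls lay between 1.23e-06 and 8.69e-05, and that of PTTG1 was 0.00237. CDK1, CDC25A, FBXO5, KIF18A, SMC4 and TOP2A fell with WTp53 in both sets, which is 6 of the 7 falls of the first set and 6 of the 27 of the second. The same overlap was not counted over all genes.

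Tethered WTp53 against WTp53 gave 42 lower and 1 higher of the 48, while 17.5% of all genes fell and 14.9% rose. The median difference was -0.36 (1.28-fold lower), against 0.02 over all genes, and it was -0.35, -0.35 and -0.38 within experiments d, e and f. All tethered arrays lay below all WTp53 arrays in 44 of the 48, against 22.2% of all genes. The smallest p were those of PBK (-0.83 ± 0.05), CCNB2 (-0.53 ± 0.04), CDC25B (-0.39 ± 0.04), WEE1 (0.53 ± 0.05), CCNB1 (-0.50 ± 0.05), the hyaluronan receptor and spindle protein HMMR (-0.48 ± 0.05), AURKA (-0.40 ± 0.04), the passenger CDCA8 (-0.53 ± 0.06), KIF15 (-0.53 ± 0.06) and BORA, an activator of Aurora A (-0.49 ± 0.05), with limma adjusted p between 5.39e-06 and 0.000128. ESPL1, SMC4, CKAP2, CDC25C and CDC20 did not pass. The 9 genes lower with ΔNp53:WTp53 than with WTp53 were also lower here, 9 of 42. Since 42 of the 48 were lower here, most of any 9 would be shared, and this overlap says little. Of the calls in the second set, 46 of 46, 27 of 29 and 42 of 43 were kept whichever array was left out, but they rest on the small spread of that set: with 1 spread for all 18 arrays 21, 2 and 5 genes fell with tethered WTp53 against vector, WTp53 against vector and tethered WTp53 against WTp53. In that fit 33 genes fell with ΔNp53:WTp53 against WTp53.

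**Figure D3:**
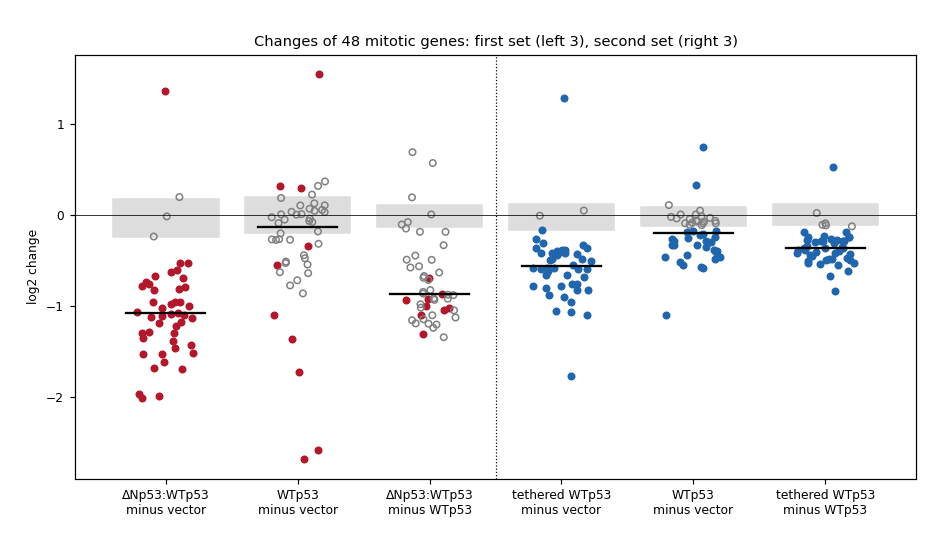
Log2 change of each of the 48 genes (points) in the 6 comparisons within sets; filled points passed limma at an adjusted p under 0.05, black bars are the medians of the 48 and grey boxes span the interquartile range of all genes. The medians are -1.08, -0.13 and -0.87 in the first set and -0.56, -0.20 and -0.36 in the second.

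Among the genes of mitotic entry, CDK1 was lowered by every p53 construct. Its level was 7.50, 5.42 and 4.95 in ΔNp53:WTp53 and 6.44, 4.80 and 4.90 in WTp53, against 8.20, 7.79 and 7.91 in vector. It was 7.68, 7.91 and 7.39 in tethered WTp53 and 8.25, 8.37 and 8.19 in WTp53 of the second set, against 8.87, 8.65 and 8.75 in vector. Both p53 groups of the first set lay below vector and overlapped each other, in experiments 4 and 5 at a level within the range of the markers of other cell types, where a difference between them may not be measurable, whereas the 3 groups of the second set did not overlap, with tethered WTp53 lowest. CDK1 fell by 2.01 with ΔNp53:WTp53 (limma adjusted p = 0.0262) and by 1.10 with tethered WTp53 (9.91e-06). ΔNp53:WTp53 and WTp53 differed by 0.57 ± 0.61, which did not pass (0.704), and tethered WTp53 was below WTp53 by -0.61 ± 0.11 (0.00207).

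The B-type cyclins followed another pattern, since WTp53 left them near vector. CCNB1 had 9.85, 8.81 and 8.33 in ΔNp53:WTp53 and 10.27, 10.19 and 9.98 in WTp53, against 10.26, 10.06 and 10.02 in vector. It had 10.15, 10.12 and 10.29 in tethered WTp53 and 10.64, 10.70 and 10.73 in WTp53, against 10.78, 10.75 and 10.76 in vector. Both constructs lay wholly below their WTp53 arrays. The difference was -1.16 ± 0.30 for ΔNp53:WTp53, which passed with the experiment as a block (limma adjusted p = 0.0243) and not without it (0.0804), and -0.50 ± 0.05 for tethered WTp53 (7.74e-05). CCNB2 had 9.36, 9.12 and 8.80 in ΔNp53:WTp53 and 9.74, 9.93 and 9.69 in WTp53, against 9.79, 9.80 and 9.75 in vector. It had 10.77, 10.80 and 10.80 in tethered WTp53 and 11.35, 11.32 and 11.30 in WTp53, against 11.41, 11.36 and 11.38 in vector. Again each construct was below both other groups of its set. The difference of ΔNp53:WTp53 from WTp53 was -0.69 ± 0.13 (limma adjusted p = 0.0297) and that of tethered WTp53 was -0.53 ± 0.04 (1.29e-05).

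WEE1, the nuclear kinase that inhibits CDK1, moved the opposite way. It had 7.39, 7.90 and 8.06 in ΔNp53:WTp53 and 7.76, 8.05 and 8.10 in WTp53, against 6.55, 6.34 and 6.38 in vector. It had 9.74, 9.86 and 9.67 in tethered WTp53 and 9.21, 9.23 and 9.23 in WTp53, against 8.52, 8.42 and 8.48 in vector. Every p53 array was above every vector array of its set, and only tethered WTp53 was also wholly above WTp53. The difference of ΔNp53:WTp53 from WTp53 was -0.18 ± 0.17 (limma adjusted p = 0.638), with the other WEE1 probe sets at 0.27 and 0.14. The second inhibitory kinase, PKMYT1, fell by 0.74 with ΔNp53:WTp53 and by 0.36 with tethered WTp53. Of the activating phosphatases, CDC25A fell in all 4 comparisons with vector (by 0.62 and 0.55 in the first set and by 0.87 and 0.32 in the second), and CDC25B and CDC25C fell by 0.78 and 1.02 with ΔNp53:WTp53 and by 0.48 and 0.65 with tethered WTp53.

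**Figure D4:**
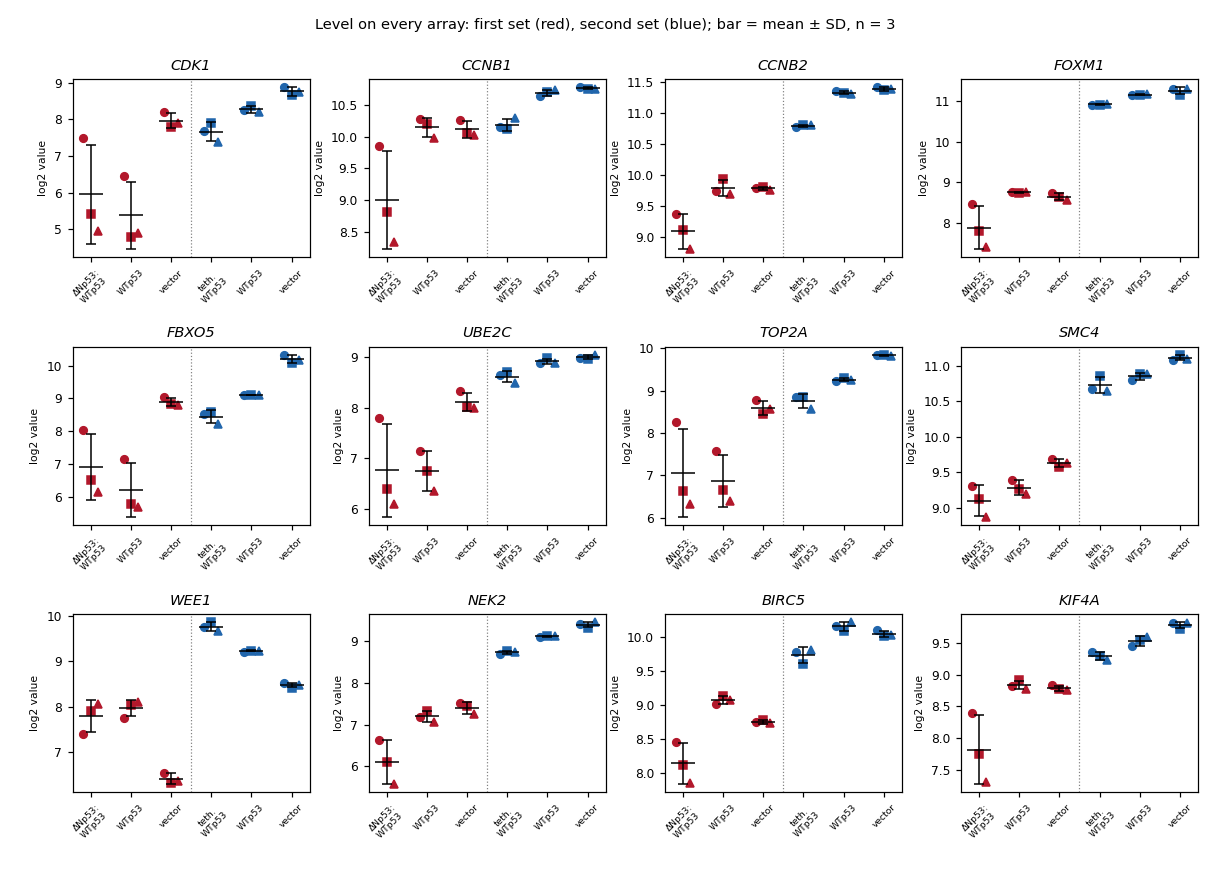
Log2 level of 12 of the genes on every array (red, first set; blue, second set; circle, square and triangle for experiments 0, 4 and 5 or d, e and f), with mean and SD (n = 3); each panel has its own axis. CDK1, FBXO5, UBE2C and TOP2A are low in ΔNp53:WTp53 and WTp53 of the first set, CCNB1, CCNB2, FOXM1, BIRC5 and KIF4A have all ΔNp53:WTp53 arrays below all WTp53 arrays, and WEE1 is above vector in all p53 groups.

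Among regulators of the anaphase-promoting complex, FBXO5 and UBE2C fell with WTp53 as well as with ΔNp53:WTp53 in the first set. FBXO5 (EMI1), its inhibitor, had 8.03, 6.52 and 6.12 in ΔNp53:WTp53 and 7.14, 5.77 and 5.69 in WTp53, against 9.03, 8.83 and 8.79 in vector. It had 8.53, 8.57 and 8.22 in tethered WTp53 and 9.11 on all 3 WTp53 arrays, against 10.34, 10.09 and 10.19 in vector. Every p53 array was below vector, and tethered WTp53 was below WTp53 by -0.67 ± 0.09 (limma adjusted p = 0.000336), whereas ΔNp53:WTp53 differed from WTp53 by 0.69 ± 0.48 (0.519). The same limit at low levels applies in experiments 4 and 5 of WTp53. In experiment 5 of ΔNp53:WTp53 the level (6.12) was inside the range of the markers of other cell types but above their values on vector arrays. UBE2C, the ubiquitin-conjugating enzyme of the complex, had 7.80, 6.38 and 6.09 in ΔNp53:WTp53 and 7.15, 6.75 and 6.35 in WTp53, against 8.33, 8.02 and 7.99 in vector. It had 8.64, 8.70 and 8.49 in tethered WTp53 and 8.89, 8.98 and 8.88 in WTp53, against 8.99, 8.96 and 9.05 in vector. WTp53 lowered it in the first set (-1.36 ± 0.38, limma adjusted p = 0.0201) and lay within the vector range of the second in 1 of 3 arrays (-0.08 ± 0.06, 0.307). Tethered WTp53 was below both other groups.

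Securin, PTTG1, which holds separase inactive, was not lowered against vector by any construct. It had 10.46, 10.50 and 10.42 in ΔNp53:WTp53 and 10.76, 10.85 and 10.77 in WTp53, against 10.39, 10.53 and 10.50 in vector. It had 11.01, 10.79 and 11.03 in tethered WTp53 and 11.19, 11.19 and 11.28 in WTp53, against 10.93, 10.82 and 10.93 in vector. The WTp53 arrays were the highest of both sets. Tethered WTp53 was below WTp53 by -0.28 ± 0.07 (limma adjusted p = 0.00874), and the difference of ΔNp53:WTp53 from WTp53, -0.33 ± 0.08, did not pass (0.0583). Separase, ESPL1, fell by 1.11 with ΔNp53:WTp53 and by 0.50 with tethered WTp53, while CDC20, the activator of the complex, passed only as a rise with WTp53 in the first set.

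In the group of Aurora and NEK kinases and chromosomal passengers, 7 of 8 fell with ΔNp53:WTp53, 8 of 8 with tethered WTp53, and 0 of 8 and 3 of 8 (BORA, NEK2 and INCENP) with WTp53 in the first and second set. BIRC5 (survivin) had 8.46, 8.12 and 7.86 in ΔNp53:WTp53 and 9.01, 9.13 and 9.07 in WTp53, against 8.75, 8.77 and 8.73 in vector. It had 9.78, 9.60 and 9.81 in tethered WTp53 and 10.16, 10.08 and 10.21 in WTp53, against 10.09, 10.01 and 10.02 in vector. Both constructs were below both other groups, while WTp53 lay above vector in the first set by 0.32 ± 0.13 (limma adjusted p = 0.0952). A second BIRC5 probe set differed by -0.25 between ΔNp53:WTp53 and WTp53, against -0.93 for the one used. AURKA, which matures the spindle poles, fell by 1.08 with ΔNp53:WTp53 and by 0.42 with tethered WTp53 against vector. AURKB, the catalytic passenger, fell by 0.96 and 0.39, and TPX2, the spindle activator of Aurora A, by 0.96 and 0.36, in the same comparisons. BORA and the passenger CDCA8 fell by 1.13 and 1.07 with ΔNp53:WTp53.

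All 9 kinesins fell with both constructs against vector, by medians of -1.52 and -0.78. KIF4A, a chromokinesin of the spindle midzone, had 8.39, 7.75 and 7.31 in ΔNp53:WTp53 and 8.81, 8.91 and 8.78 in WTp53, against 8.83, 8.77 and 8.76 in vector. It had 9.36, 9.30 and 9.23 in tethered WTp53 and 9.45, 9.54 and 9.60 in WTp53, against 9.81, 9.72 and 9.81 in vector. ΔNp53:WTp53 lay below WTp53, which overlapped vector, and in the second set the 3 groups were stepped. KIF18A, which controls chromosome position at the spindle centre, fell with all constructs: by 1.97 with ΔNp53:WTp53, by 1.09 with WTp53, by 1.05 with tethered WTp53 and by 0.59 with WTp53 of the second set. KIF20A, needed for cytokinesis, was the kinesin nearest to vector (-0.67 ± 0.23 with ΔNp53:WTp53 and -0.26 ± 0.05 with tethered WTp53). KIF11, which slides spindle poles apart, and KIF15, which backs it up, fell by 1.52 and 1.69 with ΔNp53:WTp53. KIF23 and KIF14, motors of the midzone and midbody, fell by 1.68 and 1.61, and the microtubule depolymerase KIF2C and the chromokinesin KIF22 by 1.0 and 1.07. With WTp53, 1 of 9 kinesins fell in the first set (3 with the experiment as a block, adding KIF15 and KIF22) and 8 of 9 in the second.

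The 4 genes of the central spindle and of cytokinesis fell with both constructs. With WTp53, 0 of the 4 fell in the first set and all 4 in the second. PRC1, which bundles the antiparallel microtubules of the midzone, had 9.09, 8.10 and 7.45 in ΔNp53:WTp53 and 9.39, 9.42 and 9.40 in WTp53, against 9.48, 9.36 and 9.36 in vector. It had 9.88, 9.89 and 9.90 in tethered WTp53 and 10.21, 10.25 and 10.31 in WTp53, against 10.48, 10.40 and 10.43 in vector. ΔNp53:WTp53 lay below WTp53 in every experiment, by -1.19 ± 0.31, which passed with the experiment as a block (limma adjusted p = 0.0407) and not without it (0.0808). RACGAP1, a subunit of the centralspindlin complex, fell by 1.30, ECT2 fell by 1.46 and ANLN fell by 1.43 with ΔNp53:WTp53. Of the spindle-associated proteins, TACC3, which stabilises kinetochore fibres with Aurora A, had 8.20, 7.69 and 7.10 in ΔNp53:WTp53 and 8.51, 8.77 and 8.69 in WTp53, against 8.54, 8.48 and 8.39 in vector. It had 9.39, 9.38 and 9.59 in tethered WTp53 and 9.84, 9.83 and 9.96 in WTp53, against 9.83, 9.87 and 9.91 in vector. Both constructs were below both other groups, and WTp53 overlapped vector in both sets. HMMR, NUSAP1 and DLGAP5, which organise or bundle spindle microtubules, fell by 1.38, 1.28 and 0.82 with ΔNp53:WTp53 and by 0.59, 0.78 and 0.39 with tethered WTp53 against vector. NUSAP1 also fell with WTp53 in the second set (-0.30 ± 0.06). CKAP2, a microtubule-stabilising protein, had the smallest changes of this group (-0.53 ± 0.15 and -0.16 ± 0.04 against vector with ΔNp53:WTp53 and tethered WTp53).

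Both transcription factors fell with both constructs against vector and with WTp53 in neither set. MYBL2, which acts with MuvB, had 8.55, 7.99 and 7.64 in ΔNp53:WTp53 and 8.79, 9.07 and 8.91 in WTp53, against 8.90, 8.86 and 8.79 in vector. It had 10.88, 10.88 and 10.99 in tethered WTp53 and 11.26, 11.32 and 11.31 in WTp53, against 11.29, 11.32 and 11.39 in vector. WTp53 overlapped vector in both sets and each construct lay below both. FOXM1, its partner at G2 and mitotic promoters, had 8.47, 7.81 and 7.42 in ΔNp53:WTp53 and 8.77, 8.75 and 8.76 in WTp53, against 8.75, 8.64 and 8.57 in vector. It had 10.90, 10.90 and 10.92 in tethered WTp53 and 11.15, 11.13 and 11.17 in WTp53, against 11.29, 11.14 and 11.29 in vector. The constructs were again lowest, by -0.86 ± 0.21 against WTp53 for ΔNp53:WTp53 (limma adjusted p = 0.0639, and 0.0307 with the experiment as a block) and by -0.24 ± 0.05 for tethered WTp53 (0.00298).

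PBK, a mitotic kinase related to MAP kinase kinases, had 7.90, 7.38 and 7.01 in ΔNp53:WTp53 and 8.28, 8.44 and 8.36 in WTp53, against 8.36, 8.48 and 8.31 in vector. It had 7.89, 7.78 and 7.87 in tethered WTp53 and 8.72, 8.63 and 8.69 in WTp53, against 8.73, 8.61 and 8.68 in vector. It was lower with each construct by nearly the same amount against WTp53 as against vector, and WTp53 overlapped vector. MELK, another mitotic kinase, fell by 1.21 with ΔNp53:WTp53 and by 0.58 with tethered WTp53. It also fell with WTp53 in the second set (-0.29 ± 0.05).

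Condensin subunits and topoisomerase II alpha were lowered by both constructs, and SMC4 and TOP2A also by WTp53 in the first set, as was NCAPH with the experiment as a block (-0.86 ± 0.44, limma adjusted p = 0.0408, and 0.175 without the block). In the second set WTp53 lowered all 5 genes of this group. NCAPG, a condensin I subunit, had 9.86, 8.81 and 8.47 in ΔNp53:WTp53 and 10.00, 9.88 and 9.73 in WTp53, against 10.31, 10.00 and 10.11 in vector. It had 10.78, 10.65 and 10.64 in tethered WTp53 and 10.88 on all 3 WTp53 arrays, against 11.08, 11.13 and 11.10 in vector. ΔNp53:WTp53 was below vector and overlapped WTp53, from which it differed by -0.82 ± 0.28 (limma adjusted p = 0.163). TOP2A had 8.25, 6.63 and 6.31 in ΔNp53:WTp53 and 7.57, 6.65 and 6.39 in WTp53, against 8.78, 8.44 and 8.56 in vector. It had 8.86, 8.86 and 8.57 in tethered WTp53 and 9.23, 9.29 and 9.26 in WTp53, against 9.85, 9.83 and 9.81 in vector. Its difference between ΔNp53:WTp53 and WTp53 did not pass (0.20 ± 0.45, limma adjusted p = 0.887), with 6.31 inside the range of the markers of other cell types but above their values on vector arrays. TOP2A was lower with tethered WTp53 than with WTp53 (-0.50 ± 0.07, limma adjusted p = 0.000481). SMC4, an ATPase core subunit of condensin, had 9.31, 9.12 and 8.88 in ΔNp53:WTp53 and 9.39, 9.27 and 9.19 in WTp53, against 9.69, 9.58 and 9.62 in vector. It had 10.68, 10.86 and 10.65 in tethered WTp53 and 10.80, 10.88 and 10.88 in WTp53, against 11.09, 11.16 and 11.10 in vector. In both sets the p53 groups overlapped each other and lay below vector. The remaining condensin subunits, NCAPH and SMC2, fell by 1.53 and 1.17 with ΔNp53:WTp53 and by 0.76 and 0.76 with tethered WTp53.

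**Figure D5:**
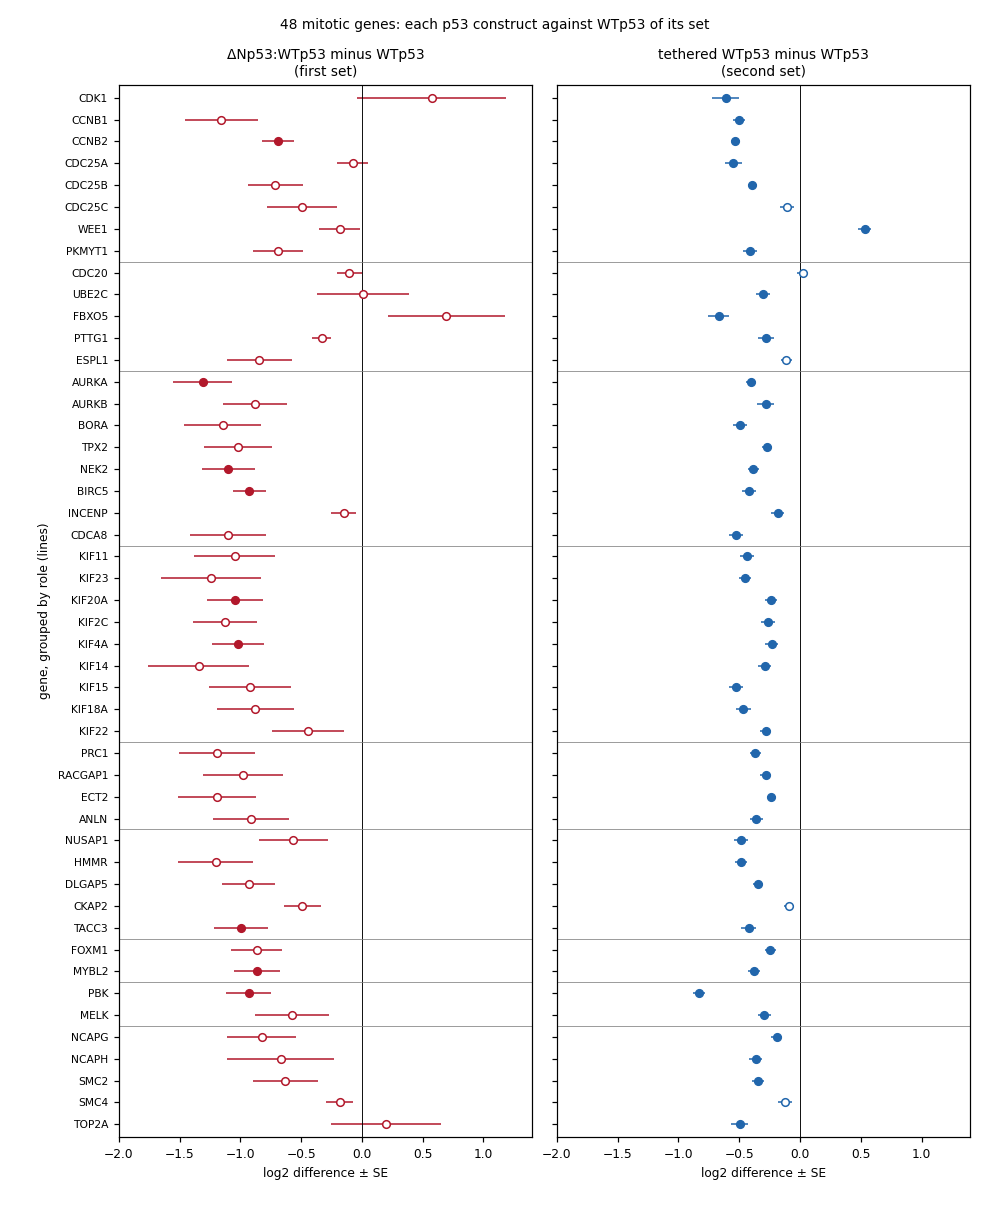
Log2 difference ± SE of each of the 48 genes, by role, for ΔNp53:WTp53 minus WTp53 (left) and tethered WTp53 minus WTp53 (right); filled points passed limma at an adjusted p under 0.05. Most genes lie left of 0 in both panels, CDK1, FBXO5, TOP2A and UBE2C lie right of 0 on the left side only, and WEE1 and, by 0.02, CDC20 lie right of 0 on the right side only.

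Whether both constructs departed from WTp53 to the same extent was tested as a difference of differences over all 18 arrays. Each construct was present in only 1 set, and the sets were normalized apart. A difference between constructs therefore cannot be told apart from a difference between sets. WEE1 was the only one of the 48 that passed (-0.72 ± 0.18, limma adjusted p = 0.0456), while 1.42% of all genes passed in that direction and 1.54% in the other. The next 4 by p were AURKA (-0.91 ± 0.27, 0.0798), BIRC5 (-0.51 ± 0.15, 0.083), KIF4A (-0.79 ± 0.24, 0.0835) and KIF20A (-0.80 ± 0.25, 0.1). Without ΔNp53:WTp53 of experiment 0 the count was 35 lower, and without ΔNp53:WTp53 of experiment 5 or WTp53 of experiment 0 there was also 1 higher. The share of all genes with an array left out is not given for this test. The count of lower genes was 0 without any 1 array of the second set, without vector of experiment 4 or 5, or without WTp53 of experiment 4 or 5. The effect of WTp53 against vector was compared between the sets in the same way. WEE1 again passed, with a larger rise in the first set (0.80 ± 0.18, limma adjusted p = 0.0119), while 5.93% of all genes passed in that direction and 6.55% in the other. With the mean of its 3 probe sets the WEE1 difference was 0.50 and did not pass (adjusted p = 0.138), and the difference between constructs was -0.67 and did not pass (0.102). CDK1 (-2.10 ± 0.68, 0.0544), UBE2C (-1.28 ± 0.42, 0.0566), CDC20 (0.33 ± 0.11, 0.0583) and FBXO5 (-1.59 ± 0.54, 0.0637) did not pass. Without ΔNp53:WTp53 of experiment 0, 6 of the 48 passed as lower and 2 as higher; without that of experiment 5, 3 passed as lower; without that of experiment 4, 2 passed as higher; and without WTp53 of experiment 0, 4 passed as lower and 2 as higher.

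Related genes outside the list were counted with the same fits; their counts stand against falls in 20.3% and 26.2% of all genes with ΔNp53:WTp53 and tethered WTp53, and in 16.6% and 18.9% with WTp53 in the first and second set. Of 9 other condensin and cohesin subunits 8 fell with ΔNp53:WTp53 against vector and 8 with tethered WTp53, and 4 and 8 with WTp53 in the first and second set. SMC3, a cohesin ATPase, fell by 1.19 with ΔNp53:WTp53, and NCAPH2 of condensin II did not pass there (0.12 ± 0.10). NCAPH2 rose with WTp53 in both sets. Of 14 core subunits and cofactors of the anaphase-promoting complex 10 fell with ΔNp53:WTp53 and 13 with tethered WTp53, and 8 and 7 with WTp53. In these comparisons only ANAPC2 rose, with ΔNp53:WTp53. All 5 other kinesins listed beside the mitotic ones (KIFC1, KIF18B, KIF20B, KIF2A and KIF24) fell with both constructs. With WTp53, 1 of them (KIF24) fell in the first set and 3 (KIFC1, KIF2A and KIF24) in the second.

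Of 15 kinesins of transport in interphase cells 1 fell and 6 rose with ΔNp53:WTp53, and 1 fell and 8 rose with tethered WTp53. With WTp53 0 fell and 8 rose in the first set and 2 fell and 6 rose in the second, while between 15.2% and 21.6% of all genes rose in these 4 comparisons. KIF1B, a transporter of mitochondria and vesicles, rose by 1.37 ± 0.21 with ΔNp53:WTp53 and by 1.33 ± 0.21 with WTp53. The Greatwall pathway restrains the phosphatase PP2A in mitosis. Of 6 listed genes, MASTL, ENSA, ARPP19 and the PP2A subunits PPP2CA, PPP2R1A and PPP2R2A, 5 fell with each construct and 2 with WTp53 in each set. The 2 were PPP2CA and PPP2R2A in both sets, and PPP2R1A rose with WTp53 in the second. MASTL, the kinase itself, was among the 5 (-1.63 ± 0.43 with ΔNp53:WTp53). Of 11 subunits of DREAM and MuvB 7 fell and 1 rose with ΔNp53:WTp53, and 4 fell and 2 rose with tethered WTp53. With WTp53 3 fell and 1 rose in the first set and 3 fell and 3 rose in the second. RBL1 (p107) fell by 1.62 with ΔNp53:WTp53 and by 1.56 with WTp53, and LIN54, which reads the CHR element, rose by 0.63 ± 0.08 with ΔNp53:WTp53 and by 0.35 ± 0.08 with WTp53.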

How the data were processed

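The deposited values are log2 intensities that the authors normalized with RMA in Affymetrix Expression Console, per the submitters' processing notes; versions are not given in the sources used here. The table holds 33297 probe sets, of which 19460 carry 1 gene symbol in the platform table, 1754 several and 12083 are not listed; the single-symbol ones gave 18417 genes, 769 of them with several probe sets. No filter on dim genes was applied. Samples were grouped by title. The probe set of the transfected gene is not reported here.

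Each set was fitted apart with limma 3.58.1 in R 4.3.3 (9 arrays, 6 residual degrees of freedom) for 6 comparisons, and all 18 arrays together (12 residual degrees of freedom) for 2 differences of effects, two-sided, with Benjamini-Hochberg adjustment over all genes; errors are standard errors. An exact permutation test of 3 against 3 arrays cannot go below 0.1 and was not used. The test was tried on simulated data. Precision is limited by the number of arrays. The members and lists were chosen with earlier results of these data known. Named were the 10 smallest adjusted p per comparison, the 5 smallest p per difference, and, with values on each array, the smallest p of each role for ΔNp53:WTp53 against WTp53 and 8 chosen genes; the values of WEE1 on each array and members named beside a role group were added after values were seen. Related genes were named likewise.

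In the first set all 9 correlations of deviations from group means between arrays of the same experiment label were above 0.1 (0.11 to 0.57). Correlations between arrays of labels 4 and 5 were also positive (0.14 to 0.35), and those between label 0 and the others were negative (-0.50 to -0.17). Deviations within a group sum to 0, so the negative values follow on balance from the positive ones and add no evidence. The positive ones set experiment 0 apart, and a pairing that separates experiment 4 from 5 is not shown. Blocked values are given where they change a call. Same-label correlations of the second set lay between -0.04 and 0.13 and the label was not used as a pairing there.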

Additional observations from a re-analysis of the deposited data

Results flagged for a closer look

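WEE1 was singled out because its effect differed between the sets under a test of the difference itself, in both such tests. The difference between ΔNp53:WTp53 and WTp53 in the first set (-0.18 ± 0.17) minus that between tethered WTp53 and WTp53 in the second (0.53 ± 0.05) was -0.72 ± 0.18 (SE; limma adjusted p = 0.0456). The rise with WTp53 over vector was larger in the first set (1.55 ± 0.17) than in the second (0.75 ± 0.05), by 0.80 ± 0.18 (limma adjusted p = 0.0119). Neither passed with the mean of the 3 WEE1 probe sets (-0.67, adjusted p = 0.102, and 0.50, adjusted p = 0.138), and the first did not pass with arrays centred on the median (-0.68, adjusted p = 0.0661). The sets differ in array medians and in spread between arrays, and the part of either in these differences was not tested.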

How the results depend on the processing

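No change of sign was found among the calls under any alternative, and most movement was in counts of the first set. Counts that moved by over 1.5 times are given as genes of the 48. Counts over all genes can move with the setting too and are not given here. A move therefore cannot be read as particular to the 48. For ΔNp53:WTp53 against WTp53, 9 fell; 18 with the replicate block, 39 with array weights, 0 with the 6 arrays compared alone, 33 with 18 arrays in 1 fit, and 39 (with 1 rise) without experiment 0. For WTp53 against vector in the first set, 7 fell and 3 rose; 12 fell with the replicate block and with 18 arrays in 1 fit, 16 fell and 5 rose with array weights, 11 fell with weights per group (chosen after seeing the data), 20 fell and 6 rose with the 6 arrays alone, and 15 fell without experiment 0. For ΔNp53:WTp53 against vector 2 rose, in place of 1, with array weights, with 18 arrays in 1 fit and without experiment 0. With 18 arrays in 1 fit, 21 fell with tethered WTp53 against vector, 2 with WTp53 against vector of the second set and 5 with tethered WTp53 against WTp53. For the difference of both constructs from WTp53, 1 passed as lower; 2 as lower and 1 as higher with the replicate block, 4 as lower with weights per group, 35 as lower and 2 as higher without experiment 0, and 0 as lower with median-centred arrays or with the mean of a gene's probe sets. For the difference of WTp53 between sets, 0 passed as lower and 1 as higher; 4 and 2 with the replicate block and with weights per group, 7 and 2 without experiment 0, 3 and 2 with dim genes left out, 2 as higher with a trended, robust fit, and 0 as higher with the mean of probe sets. The block changed no other count by over 1.5 times.

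Leaving out 1 array at a time gave 29 to 45 falls and 1 to 2 rises for ΔNp53:WTp53 against vector, 3 to 17 and 1 to 4 for WTp53 against vector in the first set, and 0 to 39 falls for ΔNp53:WTp53 against WTp53. In the second set it gave 45 to 45, 25 to 28 and 41 to 43 falls for tethered WTp53 against vector, WTp53 against vector and tethered WTp53 against WTp53. The differences of effects gave 0 to 35 lower and 0 to 1 higher between constructs, and 0 to 6 lower and 1 to 2 higher for WTp53. Signal over background was not derived, and the range of the markers of other cell types is a rough guide and not a measured floor.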
